A study of Mus musculus with 6 samples.

Results

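The genes described here are those of polyamine metabolism, 9 genes named by symbol for their known roles, by a rule that uses no measured value, of 47643 gene rows in the deposited table. They were Odc1, Amd1, Srm and Sms for synthesis, Sat1 and Smox for breakdown, and the antizymes Oaz1 and Oaz2 with the antizyme inhibitor Azin1 for control. All 9 symbols were found, each in 1 row, and 8 passed the minimum of 1 FPKM (fragments scaled by gene length and library size) that the test required. Sms did not. Earlier results of these data were known when the genes were chosen. The RNA came from leukaemic GMP, the leukaemia's counterpart of the granulocyte-macrophage progenitor. Of the 6 libraries, 3 came from cells labelled as double knockout for Prkaa1 and Prkaa2 (KO), which encode the 2 alternative catalytic subunits of the energy sensor AMPK, and 3 from wild-type cells (WT), both of the C57BL/6 strain. The labels name no leukaemia oncogene, no age, no Cre driver and no deleted exons, and are silent on whether each replicate was a mouse of its own. The p-values therefore rest on library-to-library spread, which may be technical.

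Polyamines are small, positively charged molecules that bind RNA, DNA and ribosomes, and dividing cells make them in quantity. Ornithine decarboxylase makes putrescine, and spermidine synthase and spermine synthase then add aminopropyl groups that come from decarboxylated S-adenosylmethionine. Antizymes bind ornithine decarboxylase and send it to the proteasome, so that high polyamine levels lower their own synthesis. Spermidine also supplies the hypusine residue of the translation factor eIF5A, and Odc1 is a textbook target of the transcription factor MYC.

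Reads recovered from the FPKM values came to between 12370867 and 14023706 per KO library and between 11388919 and 16413874 per WT library. Prkaa1 had 1.11, 0.735 and 0.548 FPKM in the KO libraries and 2.01, 2.20 and 1.80 FPKM in the WT libraries, while Prkaa2 had 4 reads in KO and 2 in WT. Since the deleted exons are not named, reads that remain in KO check the labels in part only. Of all genes, 78.4% of the 9108 tested passed the test, 38.0% higher and 40.4% lower in KO, so passing it is the common outcome for a gene here. The direction depends on scaling: KO libraries have larger FPKM sums, and rescaling all libraries to equal sums moved the median log2 change of all genes to -0.41, against -0.02 as deposited, and the share of called genes that were higher to 27.8%, against 48.5%. Of 7 genes commonly used to gate GMP, the 4 tested were lower in KO. Cd34 and Fcgr3 had 3.51 and 66.8 FPKM in KO and 27.8 and 129 FPKM in WT, and Kit, which was not tested, had 1.43 in KO and 0.250 in WT. In what follows, values are FPKM with mean ± SD (n = 3 libraries per genotype), log2 changes are KO minus WT of log2(FPKM + 1), and a gene rose or fell only where limma's adjusted p was under 0.05.

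In KO cells Sat1 and Smox, which act in polyamine breakdown, and the antizymes rose, the spermidine synthase gene Srm fell, and Odc1 did not pass the test. Paox and Sat2, named with the neighbouring steps, fell, though Sat2 reached the minimum only through WT. Of the 8 tested members, 5 rose (Sat1, Smox, Oaz1, Oaz2 and Azin1) and 2 fell (Srm and Amd1), against 38.0% and 40.4% of all genes tested. Their median log2 change was 0.87, beside -0.02 for all genes tested. The KO values lay wholly above the WT values in those 5 genes, as in 39.1% of all genes tested, and wholly below them in Srm and the untested Sms, as in 41.6%. The groups overlapped in Odc1 and Amd1, and did not in 80.6% of all genes tested. The 9 genes together took 0.268, 0.257 and 0.265% of recovered reads in KO libraries and 0.252, 0.256 and 0.259% in WT libraries, ranges that overlap. Beside these changes, marker genes of maturing neutrophils summed to between 80871 and 82775 FPKM in KO and between 595 and 608 FPKM in WT, with 8 of 9 tested markers higher and 1 lower, and no marker at 0 in all libraries. S100a8, S100a9 and Lyz2, at 52072, 14560 and 9870 FPKM, made up most of the KO sum. The untested Cxcr2, Ly6g and Retnlg had 0.643, 0.837 and 1.63 FPKM in KO, and Mmp9 was at 0 in every KO library. Markers of basophils, mast cells and eosinophils summed to between 561 and 591 FPKM in KO and between 30.1 and 36.2 FPKM in WT (7 of 7 tested higher, with Cma1, Tpsb2, Mcpt4 and Siglecf at 0 throughout), and erythroid markers to between 243 and 249 FPKM in KO and between 37.9 and 41.1 FPKM in WT (8 of 9 tested higher, 1 not passed, none at 0 throughout). Megakaryocyte markers summed to between 12.9 and 14.1 FPKM in KO and between 4.99 and 5.89 FPKM in WT (1 of 1 tested higher, with Gp9, Gp1ba, Gp1bb and Ppbp at 0 throughout). Monocyte and dendritic cell markers summed to between 105 and 116 FPKM in KO and between 382 and 397 FPKM in WT (2 of 2 tested lower), and B cell markers to between 56.0 and 58.2 FPKM in KO and between 84.4 and 91.7 FPKM in WT (1 higher and 1 lower of 2 tested, with Pax5 at 0 throughout). Ly6c2, at 110 FPKM in KO and 387 in WT, made nearly all of the monocyte sum. The untested Csf1r was higher in KO but near the floor, at 0.179 FPKM against 0.00484 in WT. Flt3, Ccr2, Cx3cr1 and Xcr1, also untested, lay wholly below WT in KO. Ighm, higher in KO, and Cd79b, lower in KO, made nearly all of the B cell sum. Ltf, Prg2, Epx, Fcer1a, Prss34, Klf1, Car2 and Gata1 reached the minimum only through KO, and F13a1 only through WT. Their directions were therefore fixed, and the counts of tested markers lean on the filter. The part of these markers in the polyamine genes' changes was not tested, and in such bulk samples fewer cells of a type and less RNA per cell cannot be told apart. Of 10 T and NK cell markers, 8 were at 0 in all libraries.

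**Figure D1:**
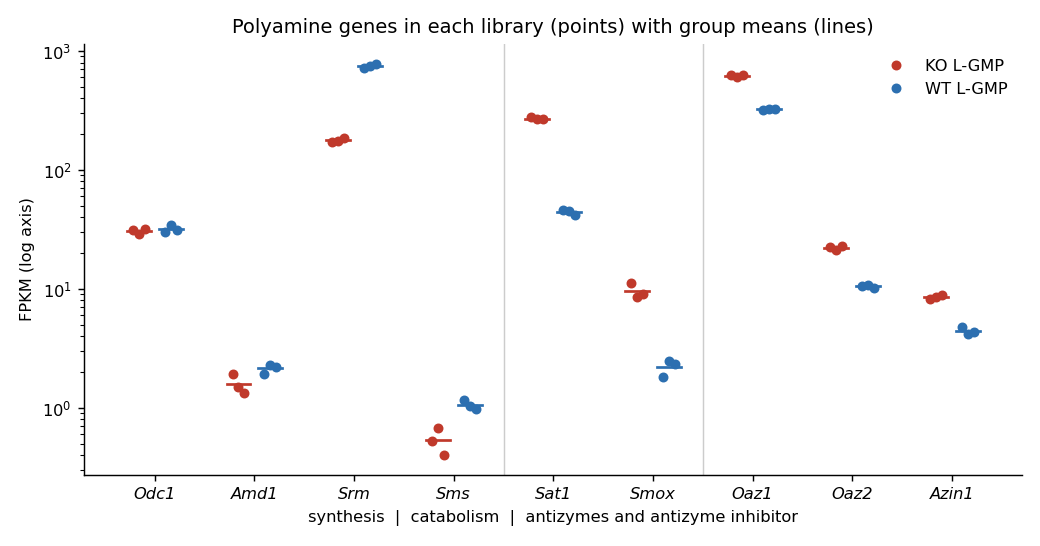
FPKM of each of the 9 polyamine genes on a log axis, with a point per library and a line at the mean of each genotype, KO left of WT. Srm stands lower in KO, at 171 to 184 FPKM, while Sat1, Smox, Oaz1, Oaz2 and Azin1 stand higher in KO and the Odc1 points of both genotypes overlap.

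Odc1, the ornithine decarboxylase that opens the pathway (ENSMUSG00000011179, mm10 chromosome 12, 17544794 to 17551505, plus strand), had 31.5, 28.9 and 31.6 FPKM in the KO libraries and 30.2, 34.4 and 31.2 FPKM in the WT libraries. The ranges overlap, and WT replicate 2 was the highest of the 6. The log2 change was -0.06 with a 95% interval from -0.20 to 0.09 (limma adjusted p = 0.425). With libraries rescaled to equal sums it was -0.51 (adjusted p = 0.000129), close to the -0.41 of the median gene, and lower in KO. Myc itself fell to 19.1 ± 0.294 FPKM in KO, against 37.3 ± 0.475 FPKM in WT (adjusted p = 2.67e-07), and its partner Max had 3.58 ± 0.317 FPKM in KO and 2.60 ± 0.0675 FPKM in WT (adjusted p = 0.00428, a call lost with equal sums, adjusted p = 0.927).

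Srm, the spermidine synthase that turns putrescine into spermidine (ENSMUSG00000006442, chromosome 4, 148591503 to 148594993, plus strand), had 171, 175 and 184 FPKM in the KO libraries and 718, 748 and 784 FPKM in the WT libraries. Every KO value was thus far below every WT value. The KO mean was 4.24-fold lower (log2 change -2.08, SE 0.04, limma adjusted p = 1.55e-08), and 3.02% of the genes tested had a lower log2 change. In WT cells Srm was the most abundant of the 9 and stood at rank 96 among all genes by mean FPKM. In KO cells it stood at rank 551, behind Oaz1 and Sat1. Its share of recovered reads was 0.0252, 0.0258 and 0.0272% in KO libraries and 0.128, 0.132 and 0.137% in WT libraries.

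Sms, the spermine synthase that extends spermidine to spermine, had the lowest FPKM of the members as deposited. It had 0.520, 0.671 and 0.399 FPKM in the KO libraries and 1.17, 1.04 and 0.967 FPKM in the WT libraries. Its level is uncertain, since a near-identical copy, described below, may have taken reads of Sms. The groups do not overlap, but the values rest on 117 reads in KO and 284 in WT, and the mean over all libraries lay under the 1 FPKM that the test required. With no minimum, 49.4% of 21132 genes passed, Sms among them (log2 change -0.43, limma adjusted p = 0.0111). Amd1, the S-adenosylmethionine decarboxylase that supplies the aminopropyl groups, had 1.93, 1.505 and 1.33 FPKM in the KO libraries and 1.91, 2.29 and 2.21 FPKM in the WT libraries. KO replicate 1 lay above WT replicate 1, so the groups overlap. The log2 change was -0.28 (SE 0.11, adjusted p = 0.0438), and the call was lost when KO replicate 2 (adjusted p = 0.103), KO replicate 3 (0.124), WT replicate 2 (0.122) or WT replicate 3 (0.107) was left out, and with no minimum FPKM (0.0852).

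Of the 9 members, the 2 that act in breakdown, Sat1 and Smox, rose, while the related Paox and Sat2 fell. Sat2 reached the minimum only through WT, so its direction was fixed. Sat1, the acetyltransferase that marks spermidine and spermine for export or oxidation (ENSMUSG00000025283, chromosome X, 155213132 to 155216449, minus strand), had 278, 266 and 266 FPKM in the KO libraries and 46.3, 45.3 and 41.9 FPKM in the WT libraries. Every KO value lay far above every WT value. The KO mean was 6.07-fold higher (log2 change 2.58, SE 0.04, limma adjusted p = 7.37e-09), and 1.59% of the genes tested had a higher log2 change. Smox, the oxidase that turns spermine back into spermidine and releases hydrogen peroxide (ENSMUSG00000027333, chromosome 2, 131491496 to 131525922, plus strand), had 11.2, 8.58 and 9.07 FPKM in the KO libraries and 1.80, 2.47 and 2.31 FPKM in the WT libraries. Its KO values spread more, relative to their mean, than those of Sat1 and lay clear of the WT values, with 1398 reads in KO and 390 in WT. The KO mean was 4.39-fold higher (log2 change 1.73, SE 0.12, adjusted p = 8.14e-06). Both stayed higher with libraries rescaled to equal sums, with log2 changes of 2.11 for Sat1 and 1.36 for Smox.

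The antizymes need an unusual step of translation: the ribosome must shift forward by a base at a stop codon, which polyamines favour, before it can read the rest of the protein. The frameshift sites of Oaz1 (GRCm38 chr10:80828277-80828321) and Oaz2 (GRCm38 chr9:65686254-65686298), both on the plus strand and in coding exons, are shown because both antizyme RNAs rose and share this control point. They were read from GENCODE M21 transcripts, 5′ to 3′, and capitals mark the shared TCCTGAT, which holds the TGA stop codon.
Oaz1: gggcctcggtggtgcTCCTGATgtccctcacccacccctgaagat
Oaz2: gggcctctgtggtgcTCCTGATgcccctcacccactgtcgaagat
The windows of 45 bases are identical at 39 positions. Counts of RNA do not measure how often the shift occurs.

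Oaz1 (ENSMUSG00000035242, chromosome 10, 80826656 to 80829290, plus strand), the antizyme found in nearly all tissues, had 628, 604 and 623 FPKM in the KO libraries and 321, 324 and 328 FPKM in the WT libraries. No library fell between the groups, and the KO mean was 1.91-fold higher (log2 change 0.93, SE 0.02, limma adjusted p = 3.28e-08). Oaz2, a second antizyme, had 22.5, 21.1 and 22.9 FPKM in the KO libraries and 10.6, 10.7 and 10.2 FPKM in the WT libraries. It was 2.11-fold higher in KO (log2 change 1.01, SE 0.05, adjusted p = 1.04e-06), a fold close to that of Oaz1 at a level far below it. Azin1, a relative of ornithine decarboxylase without its activity that captures antizymes, had 8.14, 8.56 and 8.83 FPKM in the KO libraries and 4.75, 4.19 and 4.31 FPKM in the WT libraries. It was 1.93-fold higher in KO (log2 change 0.81, SE 0.07, adjusted p = 1.85e-05), so the inhibitor rose along with its targets. All 3 stayed higher with equal sums, at log2 changes of 0.46 for Oaz1, 0.57 for Oaz2 and 0.41 for Azin1. Exons of other genes cover 2.89% of the exonic bases of Oaz1 and 5.72% of those of Azin1, and whether reads were counted by strand is not stated in the labels.

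**Figure D2:**
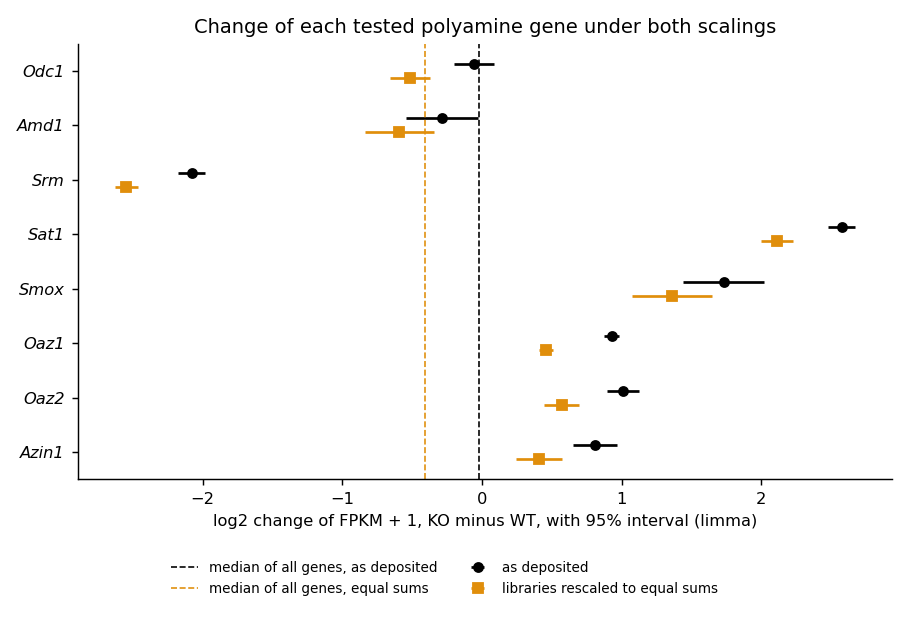
Log2 change of FPKM + 1, KO minus WT, with 95% limma intervals for the 8 tested polyamine genes, as deposited (circles) and with libraries rescaled to equal sums (squares). Dashed lines mark the median of all genes under each scaling, -0.02 and -0.41. Srm lies to the left of both lines and Sat1, Smox, Oaz1, Oaz2 and Azin1 to the right of both, while Odc1 moves with the median.

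Ratios between members within a library do not depend on library scaling and are given without a test. The ratio of Odc1 to Oaz1 was 0.0501, 0.0478 and 0.0507 in KO libraries and 0.0940, 0.106 and 0.0950 in WT libraries, 1.99-fold lower in KO. The ratio of Odc1 to Azin1 was 3.61 ± 0.249 in KO and 7.27 ± 0.932 in WT. Per unit of Odc1 RNA, KO libraries thus held more RNA of the antizyme and of its inhibitor alike. The ratio of Oaz2 to Oaz1 was 0.0358 ± 0.000880 in KO and 0.0323 ± 0.00111 in WT, with no overlap but little distance between the groups. The ratio of Smox to Sat1 was 0.0404, 0.0323 and 0.0341 in KO and 0.0388, 0.0545 and 0.0551 in WT, and these overlap. Amd1 to Odc1 was 0.0612, 0.0521 and 0.0419 in KO and 0.0634, 0.0666 and 0.0709 in WT. Srm to Sms was 329, 260 and 462 in KO and 616, 720 and 810 in WT, on the few reads of Sms. The ratio of Sat1 to Srm was chosen after its values were seen and was 1.63, 1.52 and 1.45 in KO and 0.0646, 0.0605 and 0.0535 in WT. Sat1 was thus the more abundant of this pair in every KO library and Srm in every WT library. The FPKM sums, also chosen after the values were seen, were 210 ± 6.94 in KO and 785 ± 33.5 in WT for the 4 synthesis genes and 279.9 ± 8.44 in KO and 46.7 ± 2.14 in WT for Sat1 and Smox.

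**Figure D3:**
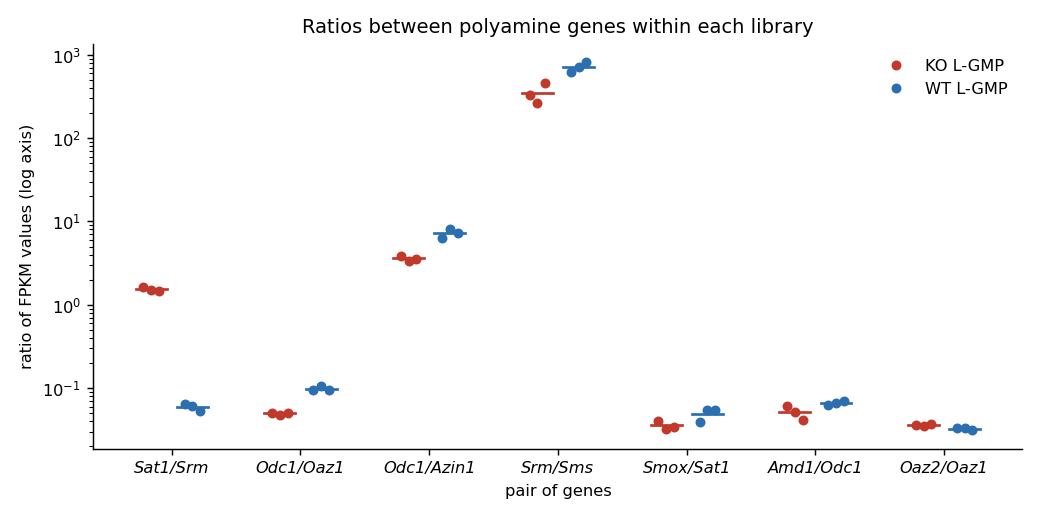
Ratio of FPKM values between pairs of polyamine genes within each library, on a log axis, with a point per library and a line at the mean of each genotype, KO left of WT. The Sat1 to Srm points lie above 1 in KO and below 0.1 in WT, and those of Smox to Sat1 overlap.

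By level, the order in KO was Oaz1, Sat1, Srm, Odc1, Oaz2, Smox, Azin1, Amd1 and Sms, with means of 618, 270, 177, 30.7, 22.2, 9.63, 8.51, 1.59 and 0.530 FPKM. There the ranges of Smox and Azin1 overlap. In WT the order was Srm, Oaz1, Sat1, Odc1, Oaz2, Azin1, Smox, Amd1 and Sms, with means of 749.9, 324, 44.5, 31.9, 10.5, 4.42, 2.19, 2.14 and 1.06 FPKM, and the ranges of Smox and Amd1 overlap. Srm and Oaz1 exchanged the first place, and Odc1 held the fourth in both. The places of Amd1 and Sms are uncertain, since reads may have gone to or been lost between their near-identical copies.

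Several members have near-identical copies elsewhere in the genome, so reads may have been split or lost between them. How reads that match several places were counted is not given in the sources used here. Sms-ps, a processed pseudogene of Sms, matches it at 100% identity over 1101 bases and had more reads than Sms itself, 505 in KO and 836 in WT, against 117 and 284 for Sms. With the reads of all its copies added, Sms had 16.2, 17.3 and 16.8 RPM (reads scaled to library size) in KO and 26.3, 23.8 and 25.4 RPM in WT, with the library sizes that the FPKM values imply. The log2 ratio of the means was -0.59 with copies, where the mean of Sms alone in WT was 1.99 times that in KO. Amd1 is matched by Amd2 at 99.6% identity over 3202 bases, 99.9% of its transcript, yet Amd2 had 7 reads in KO and 9 in WT. Reads that match both equally may be missing from both, so the level of Amd1 is uncertain. With the reads of its copies added, 8 in KO and 10 in WT, Amd1 was 1.33-fold lower in KO. The groups then only just parted, at 6.25 RPM in KO replicate 1 and 6.29 RPM in WT replicate 1. That gap rests on very few reads, and the groups did not overlap in FPKM in 80.6% of all genes tested. Odc1 has 14 such copies, of which 12 are in the table. Their reads summed to 293 in KO and 234 in WT, against 2906 and 3683 for Odc1, and the sum of gene and copies was 0.994 times as high in KO as in WT. Most of these reads, 250 in KO and 210 in WT, were of AW146154, a protein-coding gene. It matches Odc1 at 92.1% over only 921 of 2208 bases, so its reads may not be of Odc1. Oaz1-ps had 859 reads in KO and 541 in WT, against 58792 and 37265 for Oaz1, and adding them left the fold at 1.91. Oaz2-ps went the other way from Oaz2, with 1 read in KO and 34 in WT, and adding it gave 2.07-fold for Oaz2. Copies of Sat1 took 27 reads in KO and 4 in WT, against 27850 and 5548 for Sat1. The search found 1 copy of Srm, a processed pseudogene without a row in the deposited table, and none of Smox. For Azin1 it found only Gm49077, an antisense gene on chromosome 15, as Azin1 is. It matches over 359 bases and has no row either, so it is not counted here as a copy elsewhere.

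**Figure D4:**
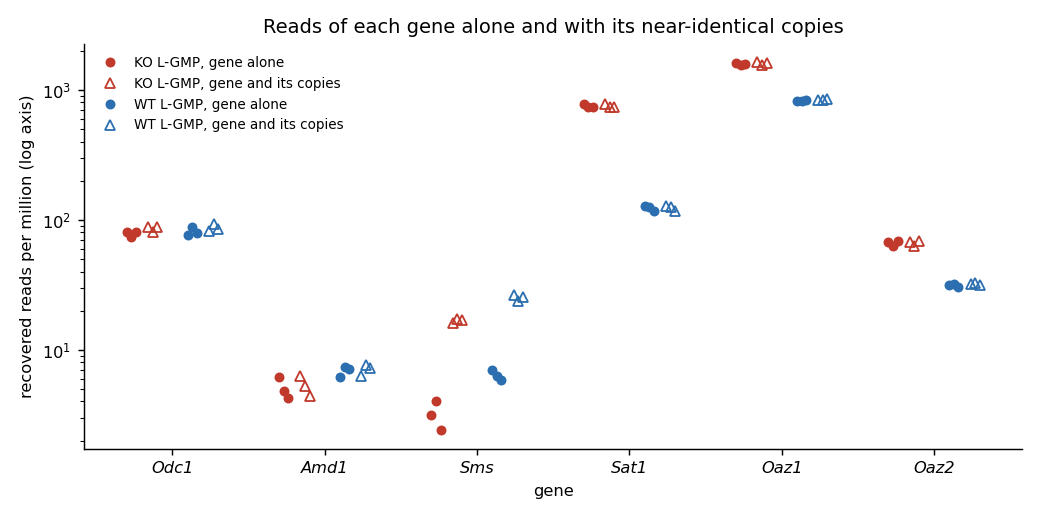
Recovered reads scaled to library size (RPM), on a log axis, of 6 polyamine genes alone (circles) and together with their near-identical copies (triangles), with a point per library, KO left of WT. Adding the copies raises Sms in both genotypes and leaves KO below WT, and it hardly moves Odc1, Amd1, Sat1, Oaz1 or Oaz2.

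MYC and its partner bind the E-box CACGTG, a member of the wider family CANNTG. Both patterns equal their own reverse complement, so a search of either strand covers both, and every CACGTG is also a CANNTG. RefSeq windows on GRCm38.p6, from 250 bases before to 50 after a start, matched 7 of the 9 members by symbol, with 8 windows since Sms has a pair of starts. Srm and Azin1 were not matched and so were not searched. Sequence outside the windows, introns farther in included, was not searched for Odc1 or any other member. The window at the upstream start of Sms held a CACGTG, at base 55, and the other 7 windows held none, where 7.15% of 32851 windows of this length hold it and 72.3% hold CANNTG. The windows of Sms with the motif and of Sat1 and Smox, the breakdown genes that rose, are shown with every CANNTG in capitals, 5′ to 3′ on the gene's strand. Sms is at chrX:157492238-157492537 on the minus strand, Sat1 at chrX:155216400-155216699 on the minus strand and Smox at chr2:131491612-131491911 on the plus strand.
Sms: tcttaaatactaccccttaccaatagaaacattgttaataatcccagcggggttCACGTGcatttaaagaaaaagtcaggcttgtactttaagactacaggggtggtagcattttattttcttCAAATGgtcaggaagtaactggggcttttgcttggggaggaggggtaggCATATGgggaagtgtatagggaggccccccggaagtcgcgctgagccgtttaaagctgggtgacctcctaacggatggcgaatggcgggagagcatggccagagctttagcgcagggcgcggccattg
Sat1: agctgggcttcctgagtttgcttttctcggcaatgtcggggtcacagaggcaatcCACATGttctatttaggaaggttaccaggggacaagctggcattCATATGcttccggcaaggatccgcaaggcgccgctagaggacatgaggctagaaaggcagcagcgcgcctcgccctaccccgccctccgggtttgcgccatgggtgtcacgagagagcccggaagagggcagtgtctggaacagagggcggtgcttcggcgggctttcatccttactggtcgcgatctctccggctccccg
Smox: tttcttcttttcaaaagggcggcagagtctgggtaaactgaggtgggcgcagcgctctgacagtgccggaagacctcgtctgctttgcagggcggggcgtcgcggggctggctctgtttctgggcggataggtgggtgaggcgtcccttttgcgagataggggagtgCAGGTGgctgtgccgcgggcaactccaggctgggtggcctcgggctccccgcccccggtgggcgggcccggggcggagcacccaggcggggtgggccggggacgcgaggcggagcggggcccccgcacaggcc
Sms held 3 CANNTG, its CACGTG among them, Sat1 held 2 and Smox 1. A match is a description of letters and does not show binding.

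Of 12 listed genes that feed the pathway with ornithine and arginine, 8 were tested: 6 fell and 2 rose, beside 40.4% lower and 38.0% higher over all genes tested. Their median log2 change was -0.56, beside -0.02 for all genes. Aldh18a1, which starts the making of ornithine and proline from glutamate, had 3.16 ± 0.296 FPKM in KO and 22.4 ± 0.931 FPKM in WT, 7.11-fold lower (adjusted p = 7.11e-08). Gatm, which spends arginine on creatine synthesis and releases ornithine, had 15.7 ± 0.642 FPKM in KO and 64.2 ± 0.795 FPKM in WT. The arginine carrier Slc7a1 had 1.34 ± 0.167 FPKM in KO and 3.35 ± 0.142 FPKM in WT (adjusted p = 3.73e-05). Arg2, the mitochondrial arginase that makes ornithine, rose to 6.90, 5.41 and 6.66 FPKM in the KO libraries, against 0, 0.0387 and 0 FPKM in the WT libraries. That is 337 reads in KO and 1 in WT, a read ratio of 408 with a 95% exact counting interval from 72.7 to 16147, and 28.1% of its exonic bases overlap another gene. Arg2 reached the minimum only through its KO values, so its direction was fixed and adds no support to the count of genes that rose. Asl, the argininosuccinate lyase that makes arginine, also rose as deposited, but fell with equal sums (log2 change -0.14, adjusted p = 0.0345). Oat, which interconverts ornithine and glutamate semialdehyde, changed by -0.12 on the log2 scale with groups that overlap. That call (limma adjusted p = 0.0448) was lost with quantile normalization (adjusted p = 0.300) and when any of 4 libraries was left out (adjusted p up to 0.136). Ass1 and Slc25a15, the mitochondrial ornithine carrier, fell as well. Slc25a15, at 0.625 FPKM in KO and 1.40 FPKM in WT, reached the minimum only through WT.

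Another list held genes around S-adenosylmethionine and the recycling of methylthioadenosine, the by-product of spermidine and spermine synthesis. Of 10 listed, 9 were tested: 7 fell and 2 rose, beside the same 40.4% lower and 38.0% higher. Their median log2 change was -0.88, beside -0.02 for all genes. Mtap, which clears methylthioadenosine, had 3.97, 4.05 and 3.98 FPKM in the KO libraries and 13.5, 12.7 and 13.1 FPKM in the WT libraries, 3.27-fold lower (adjusted p = 2.09e-07). Adi1, a later step of the same salvage, had 29.7 ± 3.30 FPKM in KO and 92.7 ± 1.47 FPKM in WT (adjusted p = 7.49e-07). Ahcy, which clears S-adenosylhomocysteine, and Enoph1, another salvage enzyme, had 6.47 ± 0.218 and 13.4 ± 1.34 FPKM in KO and 17.5 ± 1.60 and 33.7 ± 0.267 FPKM in WT. Mri1, Got1 and Mat2a, the enzyme that makes S-adenosylmethionine, fell too. Apip, a salvage enzyme, rose by 0.69 on the log2 scale. Mat2b, the regulatory partner of Mat2a, rose as deposited but did not pass with equal sums (adjusted p = 0.178).

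Of 4 genes of the eIF5A branch, the 3 tested fell, where 40.4% of all genes tested did. Eif5a had 1265 ± 5.92 FPKM in KO and 2108 ± 11.5 FPKM in WT, 1.67-fold lower (log2 change -0.74, adjusted p = 1.02e-08). Dhps, which moves part of spermidine onto eIF5A, had 26.9 ± 1.70 FPKM in KO and 53.7 ± 3.56 FPKM in WT, 1.99-fold lower. Dohh, which completes hypusine, had 66.1 ± 1.34 FPKM in KO and 114 ± 2.85 FPKM in WT, and 47.5% of its exonic sequence is covered by other genes. Their median log2 change was -0.77 as deposited, beside -0.02 for all genes, and -1.24 with equal sums, beside -0.41 for all genes.

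Of the remaining polyamine enzymes, both tested genes fell. Paox, the peroxisomal oxidase that acts on acetylated polyamines, had 5.76, 5.07 and 3.33 FPKM in the KO libraries and 14.8, 14.9 and 15.7 FPKM in the WT libraries, 3.21-fold lower (log2 change -1.52, limma adjusted p = 6.41e-05). Sat2, a relative of Sat1, had 0.0549, 0.0616 and 0 FPKM in the KO libraries and 1.66, 2.56 and 4.38 FPKM in the WT libraries (adjusted p = 0.000236). That is 2 reads in KO and 184 in WT, a ratio of WT over KO of 76.1 with a 95% exact counting interval from 20.8 to 633. These 2 were the tested genes of the 6 in their list, and 40.4% of all genes tested were lower. Sat2 reached the minimum only through its WT values, so its direction was fixed and adds no support to that count. Oaz3 and Satl1 were at 0 in all libraries, Azin2 had 0.314 ± 0.0111 FPKM in KO and 0.202 ± 0.0812 FPKM in WT, and neither Azin2 nor Amd2 reached the minimum. Among polyamine transport genes, the 3 tested of 8 rose, where 38.0% of all genes tested did. Atp13a2, a lysosomal polyamine exporter, had 11.6 ± 0.215 FPKM in KO and 6.21 ± 0.360 FPKM in WT (adjusted p = 8.21e-06). Its relative Atp13a3 had 1.88 ± 0.324 FPKM in KO and 0.671 ± 0.0204 FPKM in WT (adjusted p = 0.000243), and reached the minimum only through KO. Slc3a2, the heavy chain of several amino acid carriers, changed by 0.07 on the log2 scale, with a limma adjusted p of 0.0176. It was lower with equal sums (-0.40) and lost its call with quantile normalization (adjusted p = 0.0661) and when either of 2 libraries was left out (adjusted p up to 0.0608).

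**Figure D5:**
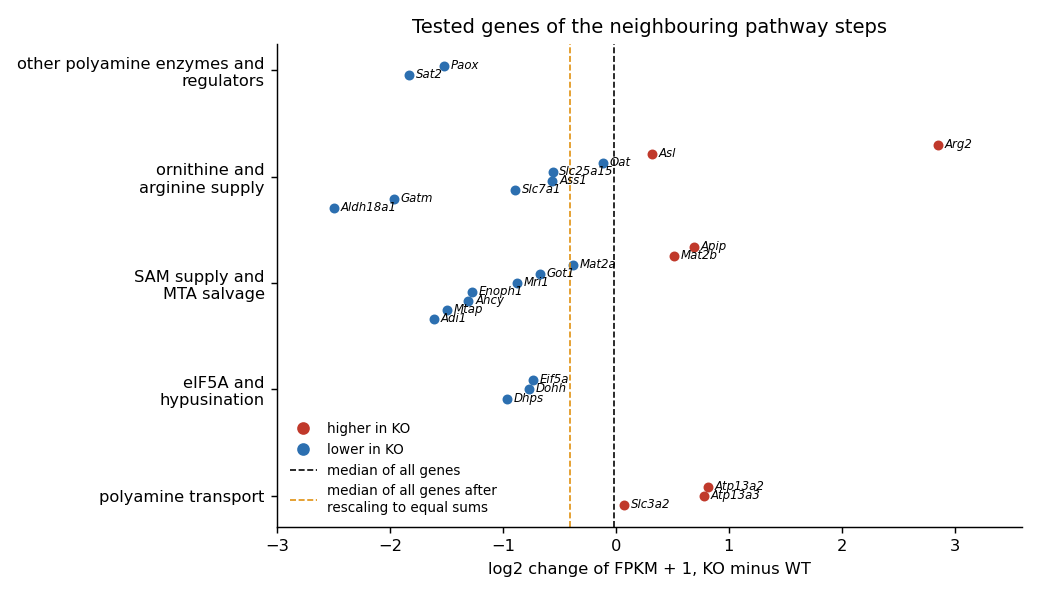
Log2 change of FPKM + 1, KO minus WT, of each tested gene in the 5 lists of neighbouring pathway steps, higher in KO in red and lower in KO in blue, with the median of all genes as deposited (-0.02) and after rescaling to equal sums (-0.41) as dashed lines. The 3 eIF5A genes lie to the left of both lines, and Arg2 stands farthest to the right.

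The genes whose profile over the 6 libraries lay nearest to that of Srm, by root-mean-square difference of centred log2(FPKM + 1), were Wdr12 (0.0330), Fut7 (0.0348) and Clstn3 (0.0429). Wdr12, a ribosome assembly factor, had 6.00 ± 0.350 FPKM in KO and 28.8 ± 0.309 FPKM in WT. Clstn3 was listed at 0 in all KO libraries and had 3.16 ± 0.0467 FPKM in WT. Nearest to Sat1 were Rbpms (0.0377), Stard5 (0.0461) and Map1lc3a (0.0571). Map1lc3a, which encodes an autophagosome protein, had 92.7 ± 2.58 FPKM in KO and 14.3 ± 0.465 FPKM in WT. With 2 groups of 3 libraries such likeness reflects mainly an equal log2 change of FPKM + 1. At low levels that can go with unequal folds. Rbpms, at 6.64 FPKM in KO and 0.252 FPKM in WT, was 26.3-fold higher in KO, against 6.07-fold for Sat1.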

How the data were processed

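RNA from sorted cells was made into cDNA by Smart-seq2 and libraries by Nextera XT, per the labels' protocols. The submitters' processing notes name CASAVA, bcl2fastq, STAR 2.5.3a, DESeq2 1.18.1 and mm10. The authors deposited 1 table of FPKM values, and how reads were counted, on which annotation and strand, and with what rule for multimapped reads, is not stated in the labels. Genes averaging 1 FPKM or more were fitted on log2(FPKM + 1) in limma 3.58.1 (R 4.3.3), with genotype as the only term, a mean-variance trend, two-sided tests and Benjamini-Hochberg adjustment over 9108 genes at 0.05. The test and the read recovery were tested on simulated data. Whole reads, recovered from the FPKM steps within a tolerance of 0.001 for 99.9% of genes above 0, gave depths and 1 alternative. For 16481 genes they came out whole at the exonic length of GENCODE M21 (GRCm38) and for 4629, Odc1, Amd1 and Azin1 among them, at the smallest length that gave whole reads. The library sizes that the FPKM values imply, 11400436 to 12937928 in KO and 12710036 to 18096883 in WT, were below the recovered reads in every KO library and above them in every WT library. In KO they are thus not plain totals of the counted reads, and how they were set is not stated. Intervals on reads cover counting error only, as PCR duplicates were not marked by molecular identifiers. Copies were transcripts with at least 90% identity over 200 bases (BLAST 2.17.0). Figures were drawn with matplotlib 3.10.9.

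The members, the lists and the rule for named genes were chosen with earlier results of these data known. The rule took all 9 members, the tested genes of 5 lists of neighbouring steps (the 4 with the largest changes in full), MYC and AMPK genes as checks, the markers and near-identical copies, and the 3 genes nearest to Srm and to Sat1. The reported fit did not pair libraries by replicate number, as the labels do not state a pairing.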

Additional observations from a re-analysis of the deposited data

How the results depend on the processing

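Srm, Sat1, Smox, Oaz1, Oaz2 and Azin1 kept their direction and their call under all 14 other settings run: a pseudocount of 0.1, no minimum FPKM, a minimum of 5, equal sums, quantile normalization, robust moderation, voom on recovered reads, the replicate block and each library left out in turn. Smox and Azin1, at 2.19 and 4.42 FPKM in WT, reached the minimum of 5 only through KO. Their direction at that setting was therefore fixed and adds no support. Over the libraries left out, the log2 change of Srm ranged from -2.11 to -2.05, that of Sat1 from 2.53 to 2.60, that of Smox from 1.63 to 1.80 and that of Amd1 from -0.38 to -0.21. Amd1 lost its call with no minimum FPKM and with the replicate block (log2 change -0.28 in both; adjusted p = 0.0852 and 0.0842). Odc1 gained a call, at -0.51, with equal sums. Sms, untested in the reported fit, moved to -0.90 with a pseudocount of 0.1 and to -0.64 with equal sums, and its read ratio to -0.59 with copies added, an alternative chosen after seeing the data. The genes called numbered 4455 (2072 higher, 2383 lower) at a minimum of 5 FPKM, where 5211 were tested, 2074 were higher with equal sums and 5769 lower with no minimum. At that minimum of 5 FPKM, 1 gene of the other polyamine enzymes and 4 of ornithine and arginine supply were called, with fewer genes tested. CACGTG stood in 6.02% of windows when the 250 bases before the start alone were read. The deviations of libraries with the same number correlated at 0.00946, -0.0118 and -0.0166, so the numbers showed no shared effect. Such a check cannot exclude that samples were paired by preparation, which the labels do not state. The replicate block called 7040 genes, against 7140. The reads behind Sms and Amd1, 117 to 311 per genotype, limit both.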
